A study of Mus musculus with 26 samples.

Results

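Regulatory T cells (Treg) from the draining lymph node (dLN) were compared between mice whose Treg were made to lose the TNF receptor TNFR2, encoded by Tnfrsf1b, and control mice. The comparison uses 6 of the 26 RNA sequencing libraries of the study, chosen by their labels alone: 3 dLN Treg libraries of the inducible conditional knockout (icKO) and 3 of the control (Ctrl). The icKO mice were Foxp3Cre-ERT2 x Tnfrsf1bFlox/Flox, with loxP-flanked Tnfrsf1b alleles and a Cre recombinase that is driven from Foxp3 and works only when tamoxifen is given. The Ctrl mice were Foxp3Cre-ERT2, with the same Cre and unflanked Tnfrsf1b, so that Cre and tamoxifen were common to both groups. All were C57BL/6 mice with active experimental autoimmune encephalomyelitis (EAE, a model of multiple sclerosis). They were given tamoxifen from day 7 to day 14, the libraries are of EAE day 14, and the cells were labelled CD4+Foxp3+. The labels number the replicates as mice, and the ages of the mice are not given in the sources used here.

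TNFR2 binds TNF and lymphotoxin-α and, unlike TNFR1, has no death domain. It recruits TRAF2 and the cIAP ubiquitin ligases, and through them the canonical and alternative NF-κB pathways and MAP kinases. Treg carry more of this receptor than most other T cells, and in mice it is known to support their expansion, survival and suppressive function in inflamed tissue.

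The libraries held 12.4 to 15.2 M assigned reads and 12090 to 13545 genes above 0, and any pair of them had a rank correlation of 0.974 to 0.991 across genes. The defining transcripts of Treg were present in every library: Cd4 averaged 717 counts-per-million (CPM, normalised for library size and composition) in icKO and 699 CPM in Ctrl, with Il2ra at 509 and 517 CPM and Ctla4 at 479 and 452 CPM. The haemoglobin and oligodendrocyte genes Hbb-bs, Mog and Olig2 were at 0 in all 6. Summed CPM of the 8 marker lists of other cell types overlapped between the groups. The myeloid and dendritic list spanned 1268 to 1760 CPM over the icKO libraries, against 891 to 1949 CPM over the Ctrl libraries.

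Tnfrsf1b itself was measured first, as the targeted gene. The icKO libraries held 649, 647 and 647 CPM of Tnfrsf1b, against 834, 774 and 897 CPM in Ctrl. The groups did not overlap, and the icKO libraries differed from each other by less than the Ctrl libraries did. The fold change was 0.776 (95% interval 0.700 to 0.860), a log2 fold change of -0.37 ± 0.07 (SE, n = 3 each), with the smallest p of all tested genes after those of Zfp36l2 and Ide. It did not pass the threshold across all genes in edgeR's quasi-likelihood test (unadjusted p = 0.000308, adjusted p = 0.999), and passed it in DESeq2 (adjusted p = 0.00199). The count covers the whole gene (chr4:145213463-145246870, minus strand, GRCm38), and which exons are flanked by loxP sites is not given in the sources used here. Reads of undeleted exons can remain in such a count, so the remaining level is not a measure of how many cells had lost the receptor. That share was not tested. In bulk RNA, fewer cells with a transcript and less transcript per cell cannot be told apart.

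The 300 bases around the annotated start of Tnfrsf1b are shown because the counted transcript begins there. They run from 250 bases before to 50 after the start (RefSeq, GRCm38.p6, chr4:145246821-145247120, minus strand, printed 5′ to 3′), with matches to the GC box GGGCGG in capitals, here on the opposite strand.
Tnfrsf1b promoter: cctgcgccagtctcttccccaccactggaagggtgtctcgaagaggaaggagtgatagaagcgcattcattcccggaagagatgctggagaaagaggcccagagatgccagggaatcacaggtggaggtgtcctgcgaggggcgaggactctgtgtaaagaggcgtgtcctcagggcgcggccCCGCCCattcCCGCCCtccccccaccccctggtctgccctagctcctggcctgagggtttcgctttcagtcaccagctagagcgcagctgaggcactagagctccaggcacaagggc
The window holds 13 CpG dinucleotides and 2 GC boxes, which do not overlap and start at -67 and -57. GC boxes on either strand were found in 35.7% of 32851 promoter windows of the same length. The window has no match on either strand to the NF-κB consensus (in 8.46% of windows), to the AP-1 motif TGANTCA (7.81%) or to the CRE motif TGACGTCA (1.79%).

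Foxp3, the transcription factor that defines Treg and drives the Cre, had 48.3, 36.7 and 48.8 CPM in icKO, against 50.1, 41.0 and 60.4 CPM in Ctrl. The groups overlapped, with a log2 fold change of -0.18 ± 0.17 (95% interval -0.56 to 0.21). A difference in Foxp3 was not detectable beyond the spread among the 3 libraries of each group.

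**Figure D1:**
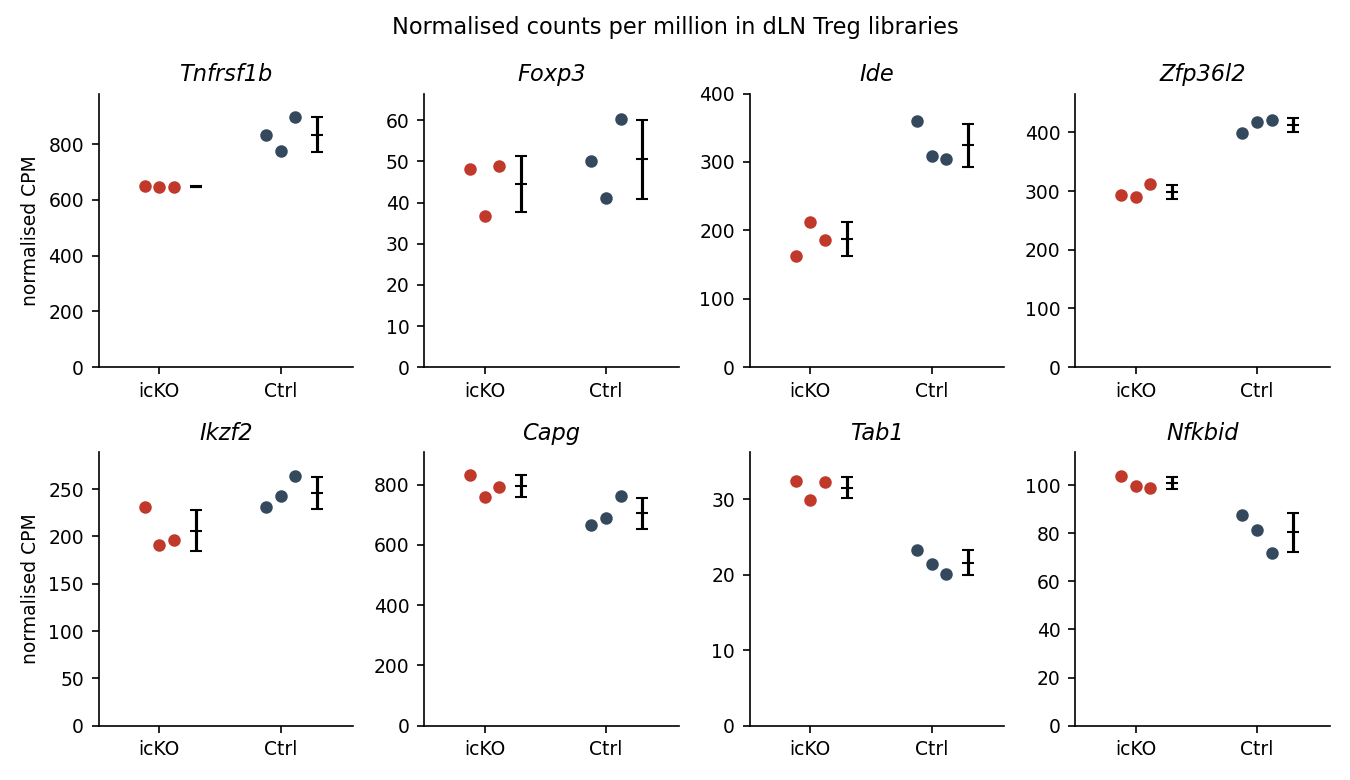
Normalised CPM of 8 genes in each dLN Treg library, icKO left of Ctrl, with the mean and SD (n = 3 each) beside the points. The groups do not overlap for Tnfrsf1b, Ide, Zfp36l2, Tab1 and Nfkbid, and they overlap for Foxp3, Ikzf2 and Capg.

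Across the transcriptome, no gene passed the test between icKO and Ctrl dLN Treg. Of 11538 genes tested, 0 were called in edgeR (adjusted p under 0.05, 0% of genes), and the smallest adjusted p was 0.234. At an unadjusted p under 0.05 there were 390 genes (3.38%), of which 144 were higher in icKO (1.25%) and 246 lower (2.13%). The 3 icKO libraries lay all above the 3 Ctrl libraries for 534 genes (4.63%) and all below for 522 (4.52%). limma with quality weights on these 6 libraries also called 0 genes, and DESeq2 called 8 (0.0693%), all of them lower in icKO. Without Ctrl replicate 1, edgeR called 1 gene, the methyl-CpG-binding protein gene Mbd2 (log2 fold change 1.63, adjusted p = 0.00709), and 589 genes had an unadjusted p under 0.05.

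The spread among the 3 libraries of each group, at the level of each gene, sets what this comparison could show. Of the 8714 genes with a mean of 10 CPM or more in at least 1 group, 8296 (95.2%) had a 95% interval wholly inside a 2-fold change in either direction, and 97.4% had an absolute log2 fold change under 0.5. Only 27 of them reached an absolute log2 fold change of 1. Of the 2824 genes under 10 CPM, 494 (17.5%) had an interval inside 2-fold, so differences in such genes were mostly not detectable with these libraries.

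**Figure D2:**
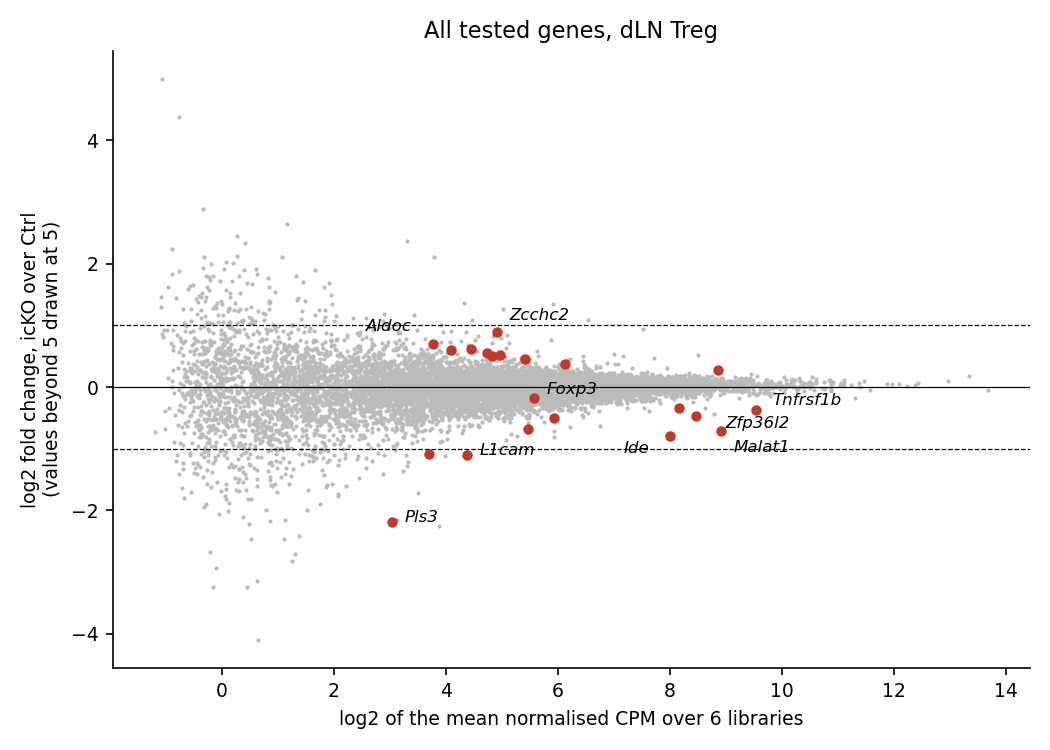
The log2 fold change of every tested gene (icKO over Ctrl) against the log2 of its mean normalised CPM, with dashed lines at 2-fold. Red points are Tnfrsf1b, Foxp3 and the 19 other genes named for the smallest p among those without overlap between the groups; the scatter narrows as the level rises.

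Among the genes that lay lower in icKO, the smallest p belonged to an RNA-binding protein and a protease. Genes named here for the smallest p were also required not to overlap between the dLN Treg groups, so that separation adds no support. Zfp36l2, a zinc-finger protein that binds AU-rich elements and promotes mRNA decay, had 294, 290 and 312 CPM in icKO, against 399, 418 and 421 CPM in Ctrl. Both groups were tight and well apart, with a log2 fold change of -0.47 ± 0.06, the smallest p of all genes (edgeR adjusted p = 0.234, DESeq2 adjusted p = 2.19e-07).

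Ide, the insulin-degrading enzyme, a metalloprotease of short peptides (chr19:37268743-37337852, minus strand, GRCm38), had 163, 213 and 185 CPM in icKO, against 360, 309 and 304 CPM in Ctrl. The highest icKO library lay below the lowest Ctrl library, at a fold change of 0.576 (95% interval 0.485 to 0.683). The log2 fold change was -0.80 ± 0.11 (edgeR adjusted p = 0.234, DESeq2 adjusted p = 5.31e-08). Within 10 megabases of Ide, 2 of 130 tested genes had an unadjusted p under 0.05, and within 10 megabases of Tnfrsf1b this held for 6 of 152 (3.95%), 3 higher and 3 lower.

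L1cam and Pls3 had the larger fold differences. L1cam, a neural cell adhesion molecule, had 14.9, 12.2 and 12.4 CPM in icKO, against 38.6, 23.2 and 23.0 CPM in Ctrl, a log2 fold change of -1.10 ± 0.24. Pls3, which encodes the actin-bundling protein plastin 3, had 4.56, 1.58 and 2.76 CPM in icKO, against 15.0, 7.43 and 18.3 CPM in Ctrl, a log2 fold change of -2.20 ± 0.46. Both genes lie on the X chromosome, L1cam at chrX:73853778-73896105 and Pls3 at chrX:75785654-75875182. Of the 61 tested genes within 10 megabases of L1cam, a window chosen after these values were seen, 5 had an unadjusted p under 0.05 (8.2%, beside 3.38% of all tested genes), 4 of them lower. Pls3 itself and Ikbkg are among the 5, and the median log2 fold change of the 61 was 0.01.

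Malat1, an abundant nuclear long non-coding RNA, had 409, 304 and 377 CPM in icKO, against 607, 723 and 465 CPM in Ctrl (log2 fold change -0.72 ± 0.16). Vwa8 averaged 34.2 ± 2.12 CPM in icKO against 54.8 ± 7.13 CPM in Ctrl, and Xrn1, the main cytoplasmic 5′ to 3′ exoribonuclease, averaged 50.7 ± 3.28 and 72.1 ± 7.43 CPM (SD, n = 3 each). DESeq2 called Malat1, Pls3, Vwa8 and L1cam besides the 3 genes above, and Celsr2, an adhesion receptor at 0.653 ± 0.251 CPM in icKO and 4.31 CPM in Ctrl, too low for the rule that names genes. None of these was called in edgeR. Fam53b and Jazf1 complete the set, at log2 fold changes of -0.33 ± 0.08 and -1.08 ± 0.26.

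The genes highest in icKO had larger p than the lowest ones. Zcchc2 had 40.6, 37.1 and 40.3 CPM in icKO, against 30.4, 16.2 and 16.8 CPM in Ctrl, a log2 fold change of 0.89 ± 0.24. Tab1, an adaptor that activates the kinase TAK1 downstream of TNF receptors, had 32.3, 29.9 and 32.3 CPM in icKO, against 23.3, 21.4 and 20.1 CPM in Ctrl (log2 fold change 0.54 ± 0.14, edgeR adjusted p = 0.999). Neither pair of groups overlapped, which was a condition for naming both genes, and neither gene was called by edgeR or DESeq2. Rxra, a nuclear receptor that pairs with other nuclear receptors, averaged 79.0 ± 0.877 CPM in icKO against 61.0 ± 5.29 CPM in Ctrl. Coasy, the last enzyme of coenzyme A synthesis, averaged 37.0 ± 2.69 CPM in icKO against 25.9 ± 1.70 CPM in Ctrl. Map6, Nucb2, Aldoc, Tstd3 and Grhpr lay between 0.45 and 0.70 on the log2 scale. Eno1b, at 0.28 ± 0.08, is a near-identical copy of Eno1 whose reads the counting could have split, so its value is uncertain.

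The TNF receptor and ligand genes are the family to which the deleted gene belongs. Of 25 tested, Tnfrsf1b was the 1 gene at an unadjusted p under 0.05 (4%, beside 3.38% of all tested genes). Of the 25, 10 lay above and 15 below 0, where 50.8% of all tested genes lay above 0. Their median log2 fold change was -0.08, beside a median of 0.00 over all tested genes. By level per transcript length, Tnfrsf4 (OX40) stood at 1400 ± 10.5 transcripts-per-million (TPM) in icKO and 1323 ± 108 TPM in Ctrl. Tnfrsf18 (GITR) followed at 1093 ± 58.9 TPM in icKO and 1106 ± 193 TPM in Ctrl, and these costimulatory receptors did not differ beyond their spread. Tnfrsf1b averaged 215 ± 3.50 TPM in icKO and 285 ± 22.5 TPM in Ctrl, and Tnfrsf9 (4-1BB) 253 ± 23.3 TPM in icKO and 257 ± 15.7 TPM in Ctrl. Tnfrsf1a, which encodes the other TNF receptor, was far less abundant, at 23.0 ± 3.36 TPM in icKO and 29.9 ± 2.44 TPM in Ctrl. Its log2 fold change of CPM was -0.34, with a 95% interval of -0.69 to 0.01. Of the ligands of TNFR2, Tnf had an interval of -0.10 to 0.72 around 0.31, and Lta one of -0.63 to 0.45 around -0.09.

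Genes of TNFR2 signalling and the NF-κB machinery numbered 36, of which 35 were at 10 CPM or more. Of the 36, 35 had intervals inside 2-fold, beside 95.2% of tested genes at 10 CPM or more and 76.2% of all tested genes. Of the 36, 13 lay above and 23 below 0, where 50.8% of all tested genes lay above 0. At an unadjusted p under 0.05 were 3 (8.33%, beside 3.38% of all tested genes): Tab1, which lay higher, and Ikbkg and Mapk8, which lay lower. Ikbkg, the regulatory IκB kinase subunit NEMO, had 62.5, 55.8 and 69.0 CPM in icKO, against 75.6, 73.1 and 78.0 CPM in Ctrl (log2 fold change -0.27 ± 0.11). Mapk8, the kinase JNK1, was low throughout, at 2.33 ± 0.666 CPM in icKO and 4.76 ± 0.582 CPM in Ctrl. The receptor-proximal adaptors Traf2 (-0.10, 95% interval -0.29 to 0.10) and Traf1 (-0.04, -0.29 to 0.21) and the NF-κB subunits Rela (0.03, -0.13 to 0.19) and Relb (-0.02, -0.24 to 0.19) had log2 fold changes close to 0. The subunit gene Nfkb1 stood at 0.19 (-0.04 to 0.42) and Nfkb2 at -0.14 (-0.42 to 0.14).

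Known NF-κB target genes had a median close to 0, with most members below 0. Of 30 tested, 8 lay above and 22 below 0, where 50.8% of all tested genes lay above 0. The median was -0.04, and 1 of the 30 had an unadjusted p under 0.05 (3.33%, beside 3.38% of all tested genes). That gene was Nfkbid, a nuclear IκB protein that takes part in Foxp3 induction in mice, with 104, 99.8 and 98.8 CPM in icKO, against 87.8, 81.3 and 71.9 CPM in Ctrl (log2 fold change 0.33 ± 0.10). Its groups did not overlap, and it lay higher in icKO. The feedback inhibitors Nfkbia (-0.12, 95% interval -0.35 to 0.10) and Tnfaip3 (-0.14, -0.38 to 0.09) and the survival genes Birc3 (-0.05, -0.26 to 0.16) and Bcl2l1 (-0.02, -0.30 to 0.26) had intervals that include 0.

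The Treg signature was measured with small errors. Of 29 identity genes, 28 were at 10 CPM or more. Of the 29, 27 had intervals inside 2-fold, beside 95.2% of tested genes at 10 CPM or more, and the median log2 fold change was 0.00. Il2rb, a subunit of the IL-2 receptor, averaged 1419 CPM in both groups, with an interval of -0.12 to 0.12, and Il2ra, which encodes CD25, had one of -0.22 to 0.18. The interval was -0.10 to 0.27 for Ctla4, an inhibitory receptor, and -0.24 to 0.14 for Nrp1, a marker of thymus-derived Treg in mice. At an unadjusted p under 0.05 were 6.9% of the 29, beside 3.38% of all tested genes. These were Capg, an actin-capping protein, and Ikzf2, which encodes the Treg transcription factor Helios. Ikzf2 had 231, 191 and 196 CPM in icKO, against 231, 242 and 264 CPM in Ctrl, where the highest icKO library just exceeds the lowest Ctrl library (log2 fold change -0.25 ± 0.09). Capg averaged 795 ± 36.7 CPM in icKO against 705 ± 50.5 CPM in Ctrl.

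Suppressor and effector molecules had a median log2 fold change of -0.03. Of 32 tested members, Slpi alone had an unadjusted p under 0.05 (3.12%, beside 3.38% of all tested genes). Slpi, a secreted protease inhibitor that neutrophils also make, had 1.95, 23.0 and 24.9 CPM in icKO, against 3.87, 2.36 and 3.36 CPM in Ctrl. The groups overlapped, as 1 icKO library lay below all Ctrl libraries while 2 lay far above. Of the 18 neutrophil and granulocyte markers, which include Slpi, 5 were tested, with 3 above and 2 below 0 (median log2 fold change 0.57). Their summed level was 27.1, 42.6 and 42.4 CPM in icKO, against 25.4, 61.1 and 10.6 CPM in Ctrl, which overlap. Among members too low to test, S100a8, S100a9 and Ngp stayed at or under 0.362 CPM in icKO and 4.79 CPM in Ctrl. Il1b reached 1.65 CPM in icKO and 2.01 CPM in Ctrl. Icos (0.08, 95% interval -0.10 to 0.26), Gata3 (-0.07, -0.24 to 0.10), Tgfb1 (-0.08, -0.30 to 0.14), Ebi3 (-0.05, -0.25 to 0.16) and Prdm1 (0.04, -0.28 to 0.35) stood near 0 on the log2 scale. For Il10, at 2.76 CPM in icKO and 2.64 CPM in Ctrl, the interval of -1.25 to 1.39 leaves more than a 2-fold change in either direction undetected.

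Genes of activation, homing and proliferation gave 0 members at an unadjusted p under 0.05 in 5 lists, beside 3.38% of all tested genes. These were the IL-2 receptor and STAT5 list (18 tested, median log2 fold change 0.01), T cell receptor and early activation (33, 0.00), helper lineage factors and cytokines (24, -0.03), migration receptors (29, -0.02) and the cell cycle (44, 0.05). All 44 cell cycle genes were at 10 CPM or more and had intervals inside 2-fold, beside 95.2% of tested genes at that level. The proliferation marker Mki67 itself varied among replicates of both groups, with 282, 393 and 373 CPM in icKO, against 389, 201 and 432 CPM in Ctrl. The cytokine genes Il17a, Il5, Il13 and Il3 reached at most 0.0685 CPM in any library. Among naive and central T cell genes, Atp1b1 was the 1 of 24 at an unadjusted p under 0.05 (4.17%), at -0.92 ± 0.37. Of these 24, 6 lay above and 18 below 0, where 50.8% of all tested genes lay above 0. The interferon-induced gene Oasl1 was the 1 of 38 interferon response genes (2.63%), at -1.20 ± 0.41. The BCL2 family had 1 of 17 (5.88%), the pro-apoptotic Bmf at -1.61 ± 0.55, with 2.03, 2.47 and 2.35 CPM in icKO, against 2.10, 10.4 and 8.48 CPM in Ctrl. With 1 gene each, these shares are near the 3.38% of all tested genes.

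**Figure D3:**
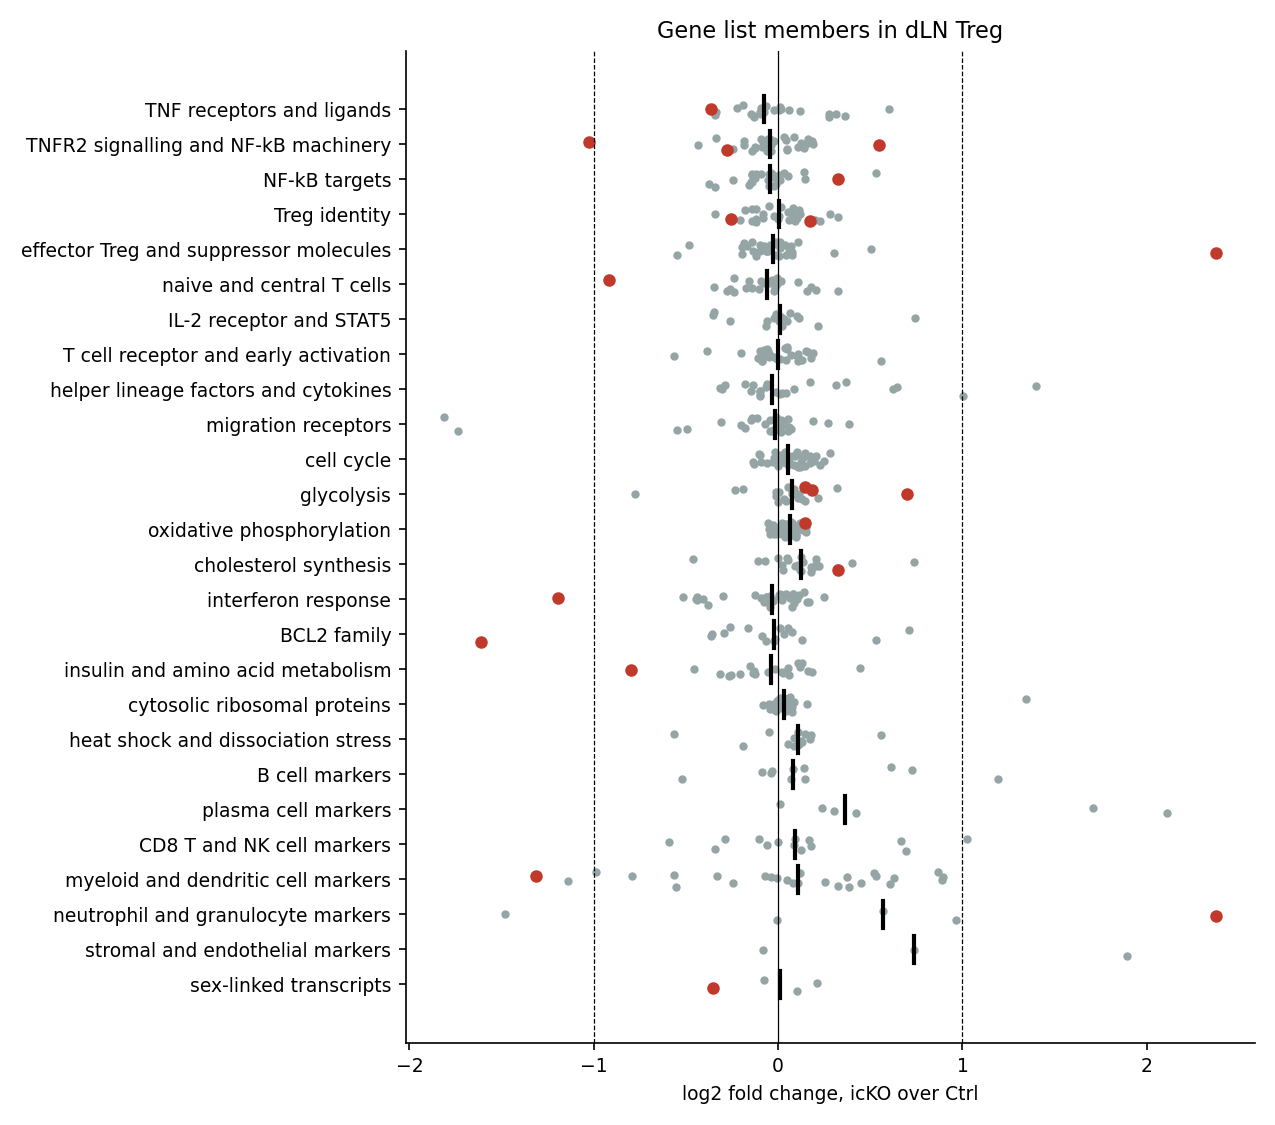
The log2 fold change (icKO over Ctrl) of every tested member of 26 gene lists, with a black bar at each list's median and red points at an unadjusted p under 0.05. Medians of the T cell and signalling lists stand within 0.13 of 0, and lists of other cell types scatter more widely at their low counts.

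Several lists, metabolic and other, had most members above 0 by small amounts, where 50.8% of all tested genes and 52.1% of those at 10 CPM or more lay above 0. Of 54 genes of oxidative phosphorylation, 45 lay above 0, with a median log2 fold change of 0.07 and a largest of 0.15. Their summed level was 14319, 14206 and 14026 CPM in icKO, against 13489, 13541 and 13691 CPM in Ctrl, which do not overlap. Among all the gene lists, no other sum was without overlap, and how many would be by chance was not computed. Only Sdhb, a subunit of succinate dehydrogenase on chromosome 4, had an unadjusted p under 0.05 (1.85% of the 54, beside 3.38% of all tested genes). Sdhb had 352, 369 and 351 CPM in icKO, against 323, 322 and 324 CPM in Ctrl (log2 fold change 0.15 ± 0.06). It lies within 10 megabases of Tnfrsf1b.

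Of 23 glycolysis genes, 18 lay above 0, and Aldoc, Gpi1 and Aldoa were at an unadjusted p under 0.05, all higher (3 of 23, beside 1.25% of all tested genes higher at that p). Aldoc, an aldolase, had 18.4, 17.4 and 14.9 CPM in icKO, against 9.64, 11.1 and 10.4 CPM in Ctrl (log2 fold change 0.70 ± 0.20), and Gpi1, glucose-6-phosphate isomerase, stood at 0.18 ± 0.07. Of 25 genes of cholesterol synthesis and uptake, 21 lay above 0, with a median of 0.13. Fdps, farnesyl diphosphate synthase, was the 1 of the 25 at an unadjusted p under 0.05 (4%, beside 3.38% of all tested genes), at 0.32 ± 0.14. Summed levels of glycolysis and cholesterol synthesis overlapped between the groups. Insulin and amino acid metabolism had 1 of 22 genes at that p (4.55%), which was Ide, and a median of -0.04. The cytosolic ribosomal protein genes (34 of 45 above 0, median 0.03) and the heat shock and dissociation stress genes (12 of 15, 0.11) had 0 at that p. Of the 44 cell cycle genes, 33 lay above 0.

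Transcript length moved with the fold change. Among genes of 10 CPM or more, the median log2 fold change was 0.04 in the shortest of 4 equal length bins, 0.02 and -0.01 in the next ones and -0.04 in the longest. In the shortest bin 34 genes were higher and 10 lower at an unadjusted p under 0.05, and in the longest 31 were higher and 103 lower. Across the 8714 genes, which share these 6 libraries, Spearman's rho of length and log2 fold change was -0.21. The median length was 4481 bases for the lower genes at that p and 2758 for the higher ones, beside 2813 for all tested genes. By library, the median log2 CPM of the longest bin minus that of the shortest was -0.21, -0.16 and -0.02 in icKO, against 0.00, -0.06 and -0.06 in Ctrl. Of the 3 icKO libraries, 2 lay below all Ctrl libraries and 1 lay among them. The oxidative phosphorylation genes, with a median length of 781 bases, belong mostly to the short end, and the part of length in their values was not tested.

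**Figure D4:**
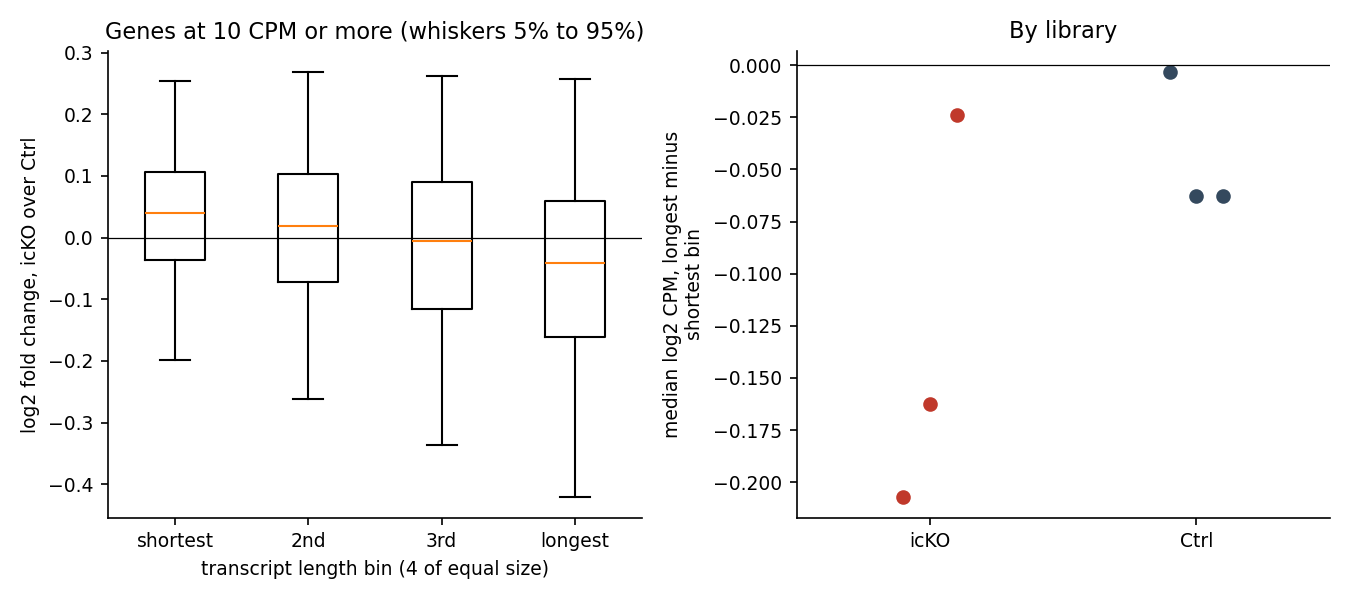
Left, the log2 fold change (icKO over Ctrl) of genes at 10 CPM or more by bin of transcript length, with medians, quartiles and 5% to 95% whiskers. Right, the median log2 CPM of the longest minus the shortest bin in each library, where 2 icKO libraries lie below the Ctrl libraries and 1 lies among them.

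Whether these differences were particular to dLN Treg was asked with other populations. Treg from the central nervous system (CNS; 3 icKO, 3 Ctrl) and conventional CD4 T cells (Tconv) from the dLN came from the same design. They may have come from the same mice as the dLN Treg, while the tests treat all libraries as independent. A gene that differs alike in several populations is therefore not shown to be an independent repeat. The library labelled dLN Tconv icKO replicate 3, with 7.78 M reads, 6005 genes above 0 and 2.91 CPM of Tnfrsf1b, stood apart from all others and was left out, which leaves 2 icKO and 3 Ctrl dLN Tconv libraries. A test of the difference between genotype differences called 0 of 12594 genes for dLN against CNS Treg (3.22% at an unadjusted p under 0.05) and 0 of 12393 for Treg against Tconv in the dLN (4.24%). limma called 0 in both. Fitted alone, edgeR called 0% of 12038 genes in CNS Treg (2.33% at an unadjusted p under 0.05), 0.00859% of 11646 in dLN Tconv (3.56%) and 0.969% of 11243 in CNS Tconv (14.1%), where the labels are in doubt for 5 of 8 libraries. CNS Tconv was therefore not tested against dLN Treg, and its values are given only beside the genes it bears on.

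Tnfrsf1b had 495, 351 and 338 CPM in CNS Treg icKO, against 445, 687 and 652 CPM in CNS Treg Ctrl, a log2 fold change of -0.59 ± 0.23. The difference from the dLN Treg value was 0.24 ± 0.24. In dLN Tconv, which held 0.676 CPM of Foxp3 in icKO and 1.04 CPM in Ctrl, Tnfrsf1b had 129 and 138 CPM in icKO, against 129, 135 and 116 CPM in Ctrl. The genotype difference in dLN Treg minus that in dLN Tconv was -0.42 ± 0.12 (unadjusted p = 0.00374, edgeR adjusted p = 0.953).

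Ide lay lower in icKO in dLN Treg, CNS Treg and dLN Tconv, but not in CNS Tconv as labelled. In CNS Treg it had 185, 126 and 95.1 CPM in icKO, against 263, 189 and 235 CPM in Ctrl (log2 fold change -0.76 ± 0.25). In dLN Tconv it had 115 and 113 CPM in icKO, against 256, 178 and 186 CPM in Ctrl (-0.86 ± 0.16). In these 2 populations the icKO libraries lay below the Ctrl libraries, although edgeR called Ide in none (adjusted p = 0.999 in CNS Treg and 0.478 in dLN Tconv). The dLN Treg difference minus the others was -0.02 ± 0.29 for CNS Treg and 0.08 ± 0.20 for dLN Tconv. With dLN Tconv icKO replicate 3 at 206 CPM kept in, the groups overlapped and the value there was -0.53 ± 0.31. In CNS Tconv the mean level of Ide was 212 ± 50.6 CPM for icKO, against 187 ± 36.3 CPM for Ctrl libraries (SD, n = 4 each), where the groups overlapped (0.18 ± 0.20). Those groups rest on labels in doubt for 5 of the 8 libraries. With these 5 moved to the other genotype, Ide would stand at 188, 136 and 223 CPM in icKO. In Ctrl it would stand at 194, 198, 277, 227 and 155 CPM (CPM of library totals), and the groups would overlap.

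Pls3 and L1cam also averaged lower in icKO in CNS Treg and dLN Tconv. Pls3 had 2.35, 4.12 and 2.27 CPM in CNS Treg icKO, against 4.04, 11.6 and 20.6 CPM in CNS Treg Ctrl, where the groups overlapped, and 2.73 and 0.305 CPM in dLN Tconv icKO, against 3.83, 4.50 and 7.54 CPM in dLN Tconv Ctrl. L1cam had 35.0, 17.1 and 21.7 CPM in CNS Treg icKO, against 49.1, 43.9 and 41.8 CPM in CNS Treg Ctrl, which did not overlap. In dLN Tconv, L1cam had 32.1 and 17.8 CPM in icKO, against 43.0, 31.4 and 36.0 CPM in Ctrl, which did. In CNS Tconv, grouped by labels in doubt for 5 of 8 libraries, both genes overlapped between the groups. There Pls3 stood at 4.34 CPM in icKO and 4.13 CPM in Ctrl (log2 fold change 0.08 ± 1.34). L1cam stood at 85.5 CPM in icKO and 87.7 CPM in Ctrl (-0.04 ± 0.30).

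Malat1 and Ikzf2 stood in opposite order in dLN Treg and in another population. Malat1 had 1936 and 1510 CPM in dLN Tconv icKO, against 394, 1066 and 1004 CPM in dLN Tconv Ctrl, so it lay higher there and lower in dLN Treg. Its genotype difference in dLN Treg minus that in dLN Tconv was -1.77 ± 0.50, and minus that in CNS Treg -1.86 ± 0.51 (edgeR adjusted p = 0.953 and 0.9999). Ikzf2 had 149, 159 and 157 CPM in CNS Treg icKO, against 105, 107 and 120 CPM in CNS Treg Ctrl, the opposite of its order in dLN Treg, and the 2 differences were -0.73 ± 0.16 apart (unadjusted p = 0.000680). Zfp36l2 overlapped between the groups in CNS Treg (0.10 ± 0.20), and its genotype difference in dLN Treg minus that in CNS Treg was -0.56 ± 0.20 (unadjusted p = 0.0156). In dLN Tconv, Zfp36l2 had 485 and 466 CPM in icKO, against 518, 597 and 538 CPM in Ctrl, lower without overlap as in dLN Treg (-0.21 ± 0.11). The dLN Treg difference minus that one was -0.24 ± 0.11 (unadjusted p = 0.0501). Against CNS Treg, the edgeR adjusted p was 0.9999 for both Ikzf2 and Zfp36l2. Both genes were named for a small p in these same dLN Treg libraries, so a small unadjusted p was favoured in advance and is no support.

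Further genes with the smallest p for dLN against CNS Treg were Ash1l (-1.47 ± 0.27), Cd8b1 (-1.69 ± 0.32), Lncpint (-2.67 ± 0.56) and Prmt5 (0.96 ± 0.23). Cd8b1, a chain of the CD8 co-receptor, averaged 29.5 CPM in dLN Treg icKO against 29.4 CPM in dLN Treg Ctrl; in the CNS it averaged 198 CPM in CNS Treg icKO against 61.2 CPM in CNS Treg Ctrl, so its difference came with the CNS libraries. For Treg against Tconv in the dLN they were Ttn (-2.91 ± 0.48), Neil3 (2.03 ± 0.40), Lncpint (-1.86 ± 0.39), Zcchc2 (1.65 ± 0.35) and Xrn1 (-0.85 ± 0.19). None had an adjusted p under 0.05 in edgeR. Ttn, at 83.8 CPM in dLN Treg icKO and 129 CPM in dLN Treg Ctrl, was called (adjusted p = 0.00177) in a fit without dLN Tconv icKO replicate 2. That fit leaves 1 library in the dLN Tconv icKO group, which is assumed to vary like the other groups, and Ttn averaged 27.6 ± 18.4 CPM over the 2 libraries before.

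**Figure D5:**
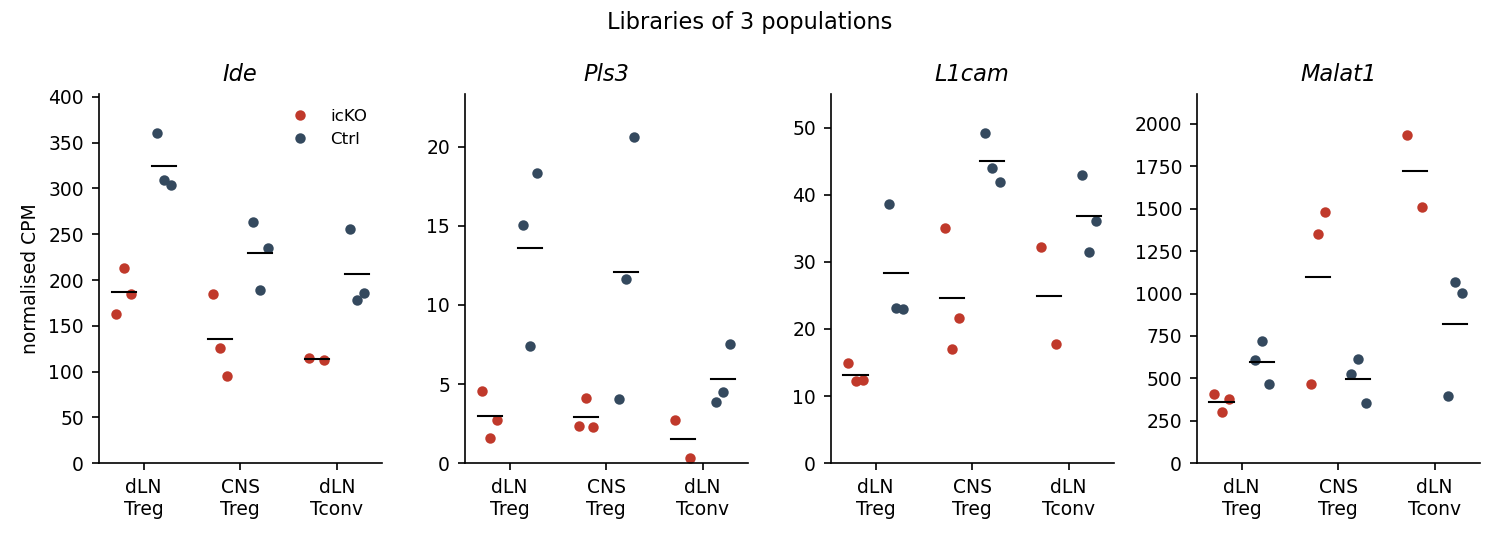
Normalised CPM of Ide, Pls3, L1cam and Malat1 in each library of dLN Treg, CNS Treg and dLN Tconv, icKO left of Ctrl, with a line at each mean; dLN Tconv icKO replicate 3 is not drawn. Ide is lower in icKO in each of the 3, from 187 against 325 CPM in dLN Treg to 114 against 207 CPM in dLN Tconv, while Malat1 averages lower in icKO in dLN Treg and higher in the other 2 populations.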

How the data were processed

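Polyadenylated RNA of sorted cells was copied with SMART-Seq v4 and made into Nextera libraries, without strand information, per the labels' protocols. Per the submitters' processing notes, FastQC, Trimmomatic, STAR 2.5.3a, RSEM 1.2.28 and mm10 were used. The deposited tables, 1 per library with 24848 gene symbols, hold expected counts, which RSEM estimates per gene. Their TPM column, made by the authors from those counts and gene lengths, was used only for levels between genes; FPKM was not used. Expected counts were rounded, filtered with filterByExpr (minimum count 10) and TMM-scaled, and the 6 dLN Treg libraries were fitted alone with edgeR 4.0.16 (quasi-likelihood test, robust) in R 4.3.3. Genes were called at a Benjamini-Hochberg adjusted p under 0.05, and the procedure was tested on simulated data first. SE was taken as the fitted log2 difference over √F, and intervals are 95%.

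Other populations were fitted alone, and interactions with 4 group means. Alternatives used DESeq2 1.42.0, limma 3.58.1 with quality weights, other filters, scalings and sets of libraries, a replicate block, and each library left out in turn. Positions came from GENCODE for GRCm38, and 28 of 36 named genes had a RefSeq promoter window. Plots used Python 3.11.15, pandas 2.3.3, numpy 2.4.6 and matplotlib 3.10.9, and tables were read with data.table (1.17.8) and jsonlite 2.0.0.

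The members and gene lists were chosen with earlier results of these data known. Named genes were Tnfrsf1b, Foxp3, in each direction the 10 genes with the smallest p among those at a mean of 10 CPM in 1 group and with no overlap, up to 3 members per list at an unadjusted p under 0.05, and 5 per interaction. The analyses of transcript length and gene position were chosen after seeing the data.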

Additional observations from a re-analysis of the deposited data

Results flagged for a closer look

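Of the named genes, 7 had genotype differences that pointed one way in every dLN Treg library and the other way in every library of another population. The number of such genes by chance was not computed.

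Tnfrsf1b stood at -0.37 on the log2 scale in dLN Treg and at 0.70 ± 0.14 in CNS Tconv, where the 4 icKO libraries held 346, 262, 372 and 343 CPM and the 4 Ctrl libraries 225, 170, 193 and 223 CPM. The difference between these was not tested. Of the 8 CNS Tconv libraries, 5 have deposited tables named with the code that elsewhere goes with the other genotype, so the direction in that population rests on labels in doubt. Taken by those codes, the libraries would span 195 to 348 CPM for icKO and 170 to 367 CPM for Ctrl (CPM of library totals), which overlap, so this gene would not be among the 7. Each of the other 3 populations had 0 such tables.

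The remaining ones were tested, but on the same libraries that flagged them, so a small unadjusted p was favoured in advance and is no support. The dLN Tconv icKO group had 2 libraries. In dLN Tconv, Malat1 stood at 1.07, against -0.72 in dLN Treg (unadjusted p of the difference 0.00623), and Xrn1 at 0.35, against -0.51 in dLN Treg (0.000548). Zcchc2 stood at -0.74 in dLN Tconv and 0.89 in dLN Treg (0.000361), and Rxra at -0.41 in dLN Tconv and 0.37 in dLN Treg (0.00279). Grhpr stood at -0.13 in dLN Tconv and 0.61 in dLN Treg (0.00854). In CNS Treg, Jazf1 stood at 0.72, against -1.08 in dLN Treg (0.00167). None of these 6 differences had an edgeR adjusted p under 0.05; the smallest adjusted p was 0.733.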

How the results depend on the processing

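The count of called genes was 0 with DESeq2 size factors, limma on 6 libraries, either filter, and edgeR with 12, 25 or 26 libraries. It was 8 in DESeq2 and 2 in limma with 26 libraries (Pla1a at 4.58 and Scd4 at -4.64, both low). Leaving out 1 library gave 0 to 1; without Ctrl replicate 1 that was Mbd2 (log2 fold change 1.63, adjusted p = 0.00709), which had 223 CPM in that library, 82.9 and 73.2 in the other Ctrl and 220 to 259 in icKO libraries. Genes at an unadjusted p under 0.05 numbered 665 in limma with 26 libraries, 54 in edgeR with 26, 149 with 25 and 175 with 12, and 287 to 589 with 1 library left out (589 without Ctrl replicate 1). Tnfrsf1b passed in DESeq2 (-0.37, adjusted p = 0.00199), and ranged from -0.42 to -0.32 with 1 library left out; Foxp3 ranged from -0.31 to -0.03. The Treg against Tconv test gave 0 to 1 calls with 1 library left out: Mbd2 (2.59, adjusted p = 0.0153) without Ctrl replicate 1 and Ttn (-3.47) without dLN Tconv icKO replicate 2, which leaves 1 dLN Tconv icKO library, assumed to vary like the other groups. The dLN against CNS test gave 0 throughout.

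The replicate numbers were not taken to pair the samples. Deviations of same-numbered icKO and Ctrl libraries correlated at -0.13, -0.06 and 0.06, those of dLN and CNS Treg icKO libraries at -0.10, -0.01 and -0.07, and those of dLN and CNS Treg Ctrl libraries at 0.01, 0.17 and 0.12. A replicate block called 0 genes, with 307 at an unadjusted p under 0.05 and Tnfrsf1b at -0.36. Besides Tnfrsf1b and Foxp3, named genes kept their side of the threshold in 531 refits and passed it in 6, all in DESeq2, and list medians moved beyond the spread in 21 of their refits against 393 that did not.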

Other observations

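Ctrl replicate 3 had the lowest total count of the 6 libraries (12.4 M), the lowest quality weight from limma (0.472, against 0.912 to 1.47 in the others) and the lowest rank correlations with the others (0.974 to 0.980). Transcripts of the Y chromosome gene Ddx3y averaged 67.1 CPM over icKO and 62.6 CPM over Ctrl libraries, while Eif2s3y, also on the Y chromosome, stood at 56.5 ± 6.83 CPM over icKO, against 72.3 ± 10.8 CPM over Ctrl libraries (log2 fold change -0.35 ± 0.14, unadjusted p = 0.0341, edgeR adjusted p = 0.999). Xist was at or under 0.145 CPM in each library. Within 10 megabases of Tnfrsf1b, Pik3cd, the catalytic PI3K subunit p110δ, had 436, 427 and 423 CPM in icKO, against 376, 375 and 383 CPM in Ctrl (log2 fold change 0.18 ± 0.06), and Cnr2, the cannabinoid receptor CB2, averaged 21.5 ± 3.89 CPM in icKO against 30.3 ± 2.34 CPM in Ctrl; neither was called.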
